A study of Sus scrofa domesticus and Sus scrofa with 18 samples.

Results

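The pig spleen held a set of protein-coding genes that were higher in the fetus than at birth. Their means at the domestic stages from birth on lay within a set range, and not all of them were low after birth. They were chosen on log2(FPKM+1), where FPKM is a fragment count scaled to transcript length and to the mapped reads of the library. A gene was taken when its mean at E55d exceeded its mean at B0d by at least 1, when the means of B0d, W30d, A180d and A2Y lay less than 0.75 apart, and when its mean over the 18 libraries was below 10. These limits held for 173 of 12913 genes (1.34%), while 477 genes in all were higher at E55d than at B0d by at least 1. Of the 173 genes, 113 had a symbol and 60 had only an identifier. The E55d mean minus the B0d mean is called the fetal excess below. Since it chose the genes, it is given for these genes as a description with no test, as are their other differences between E55d and later groups.

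Spleens came from 3 female Rongchang pigs, a Chinese domestic breed, at each of 5 stages, and from 3 female Wild Boars (WB), which gave 6 groups of untreated animals with 1 library per animal. The labels give E55d as 55 days before birth, B0d as the time straight after birth, W30d as 30 days past weaning, A180d as an age of 180 days, and both A2Y and WB as an age of 2 years. No stage between E55d and B0d was sampled, so the time at which the levels dropped was not measured. WB and A2Y pigs differed in breed, in place of origin and in the amount of sequence per library, which cannot be told apart. As whole spleen was sequenced, fewer cells of a type and less RNA per cell cannot be told apart either. The 3 E55d columns of the table carry the numbers 1, 5 and 6 and are named by them.

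The fetal spleen forms from mesenchyme, and its stroma lays down the matrix on which reticular and vascular compartments are built. It takes in blood progenitors before birth, and lymphocytes and mature macrophages fill it later. Genes that serve growth of the organ, such as matrix proteins, growth factors, their receptors and transcription factors, are known to be used in many fetal organs and less in adult ones.

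The libraries carried markers of spleen cells, and these moved with age. The summed FPKM of the 12 measured T and NK cell markers was 7.03 to 7.89 at E55d, 48.8 to 71.2 at B0d and 346 to 371 at A180d. The 7 measured macrophage markers summed to 187 to 207 at E55d and to 1330 to 1550 at B0d. The 13 measured stromal and mesothelial markers summed to 324 to 346 at E55d and to 631 to 1060 at B0d. By limma, 7 of these 13 were higher at B0d and 4 lower, LUM among the lower, against 22.3 and 12.6% of all genes. The part of these shifts in the lower levels after birth was not tested. Of markers of neighbouring organs, 0 of 20 pancreas genes were matched by symbol, so their levels are not known here. The 3 measured liver genes (ALB, APOA1 and TF) summed to 856 in B0d replicate 3 and to 50.5 and 50.1 in the other B0d libraries. ALB, the albumin gene, read 9.05 in that library against 0.13 and 0.45. B0d replicate 3 thus stood apart in the group that sets each fetal excess, and without it the limits held for 189 genes, of which 144 were among the 173. W30d replicate 2 stood apart in red cell genes, with SLC4A1 at 0.86 against 7.57 and 7.21, and without it the limits held for 150 genes, 149 of them among the 173. In the fetal group, the 15 measured erythroid markers summed to 2310 in E55d column 5 and to 13800 in columns 1 and 6. SLC4A1 was not low in column 5, at 7.90 against 8.07 and 7.63. Without column 5 the limits held for 190 genes, of which 165 were among the 173. FPKM is relative to the other transcripts of a library, and a single gene took 36.9 to 53.6% of the FPKM in 16 libraries but was at 0 in A180d replicates 1 and 2. Without these 2 libraries, the limits held for 161 genes, of which 149 were among the 173.

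The median level over the 173 genes separated the fetal libraries from all others. It was 2.58, 2.41 and 2.51 in E55d columns 1, 5 and 6, and 1.19, 1.22 and 1.12 in the B0d libraries. Among the later domestic libraries it ranged from 0.95 to 1.11 at W30d, from 0.88 to 1.13 at A180d and from 1.03 to 1.10 at A2Y. The median over all 12913 genes was 2.21 to 2.34 at E55d and 2.40 to 2.42 at B0d, so the typical gene did not share this drop. In 6 of the 173 genes (3.47%), the lowest E55d library lay at or below the highest of the 12 domestic postnatal libraries, against 90.0% of all genes, a count that the rule itself largely fixed. E55d column 1 was the highest of the 3 fetal libraries for 108 genes, and the median gap between the fetal libraries was 0.27. Column 1 also had the highest fetal median over all genes, 2.34 against 2.22 and 2.21 in columns 5 and 6. Its rank is thus not read as a trait of the set.

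**Figure D1:**
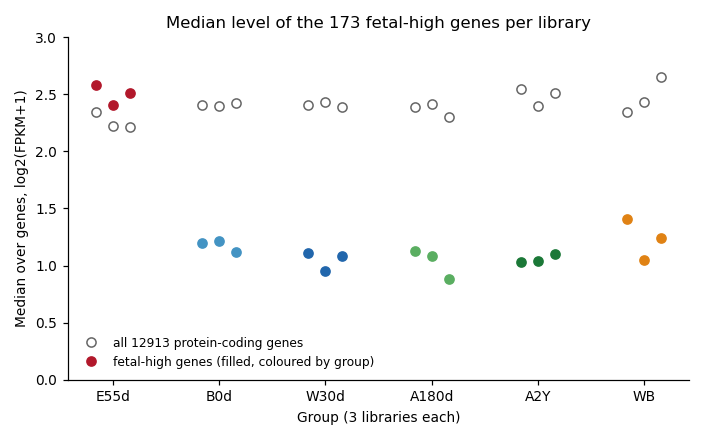
Median log2(FPKM+1) per library over the 173 fetal-high genes (filled points, coloured by group) and over all 12913 protein-coding genes (open points), 3 libraries per group. The fetal-high genes sit at 2.41 to 2.58 at E55d and at 0.88 to 1.22 in the 12 domestic libraries after birth, while the open points stay between 2.21 and 2.66.

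The fetal excess had a median of 1.27 (quartiles 1.10 and 1.53), was at least 2 in 12 genes and reached 4.97. The domestic means after birth were not flat within their limit. On log2(FPKM+1), a given ratio of FPKM spans less at low levels, so the range limit was looser for genes near 0. With a pseudocount of 0.1 in place of 1, the limits held for 185 genes, of which 58 were among the 173. The median range of the 4 means was 0.52, B0d was the highest of the 4 in 68 genes, and A180d was the lowest in 57. At the limit of 1, the genes just inside were OTTSUSG00000002529 (1.0007) and EXOG (1.0043), and those just outside were ENSSSCG00000001734 (0.9998) and CD109 (0.9965). At the limit of 0.75, FOXM1 (0.7418) and CARM1 (0.7395) were just inside, and OTTSUSG00000005496 (0.7543) and OTTSUSG00000005110 (0.7562) just outside. With 1 E55d or B0d library left out at a time, the fetal excess of 53 of the 173 genes came below 1 at least once.

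The levels after birth were lower, but few values were at 0. The median FPKM was 4.72 at E55d and 1.21 over the 12 domestic postnatal libraries. The postnatal mean was below an FPKM of 1 in 77 genes (44.5%, against 15.3% of all genes), below 0.5 in 33 (19.1%, against 6.79%) and below 0.1 in 0. The authors kept only protein-coding genes with an FPKM above 0.1, and 0 of all genes in the table had a postnatal mean below that value. A value of exactly 0 was listed 13 times among 3114, in 8 genes. The lowest postnatal mean was that of INPP5J, an inositol phosphatase chosen here after its values were seen, with an FPKM of 0.16.

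**Figure D2:**
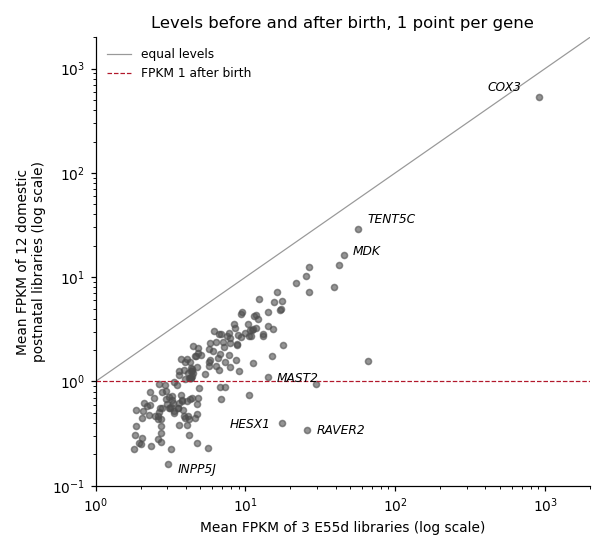
Mean FPKM over the 3 E55d libraries against the mean FPKM over the 12 domestic postnatal libraries, 1 point per gene for the 173 genes, both axes logarithmic. Of the points, 77 lie under the dashed line at an FPKM of 1, and COX3 lies near the top at 911 before and 535 after birth.

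The largest fetal excess of a gene with a symbol was that of RAVER2, a ribonucleoprotein that binds the splicing repressor PTB. RAVER2 stood at 4.72, 4.89 and 4.61 in the fetal libraries, at 0.74, 0.55 and 0.63 at B0d, and between 0.06 and 0.70 in the 9 later domestic libraries. Its fetal and postnatal values did not come near each other, and its mean FPKM was 25.8 ± 2.64 (SD, n = 3) at E55d and 0.56 ± 0.10 at B0d. WB libraries held 0.34, 0.50 and 0.11, inside the domestic postnatal range. A gene with no symbol, ENSSSCG00000024559, had a still larger excess of 4.97, and its B0d values of 2.57, 0.39 and 0.00 were far apart.

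HESX1, a homeobox repressor of forebrain and pituitary development, entered the set on 2 of the 3 fetal libraries. It read 4.73 and 4.80 in E55d columns 1 and 5 but 0.22 in column 6, which lies within its 12 domestic postnatal values of 0.16 to 0.76. Its E55d mean was 3.25 ± 2.62, and its fetal excess of 2.79 became 4.30 without column 6 and 2.01 without column 5. IL17RD, a membrane inhibitor of FGF signalling, is the neighbour of HESX1 among protein-coding genes in the RefSeq annotation of Sscrofa11.1. IL17RD read 2.43, 2.02 and 2.53 in the same 3 columns, so column 6 was not low for it. The gap of 4.58 between the fetal libraries of HESX1 was the largest among the 173 genes, of which 2 had a gap over 1.

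MAST2, a microtubule-associated kinase, stood at 4.14, 3.71 and 3.88 at E55d and at 1.63, 1.06 and 1.54 at B0d, with no overlap. ANKH, a membrane protein that exports pyrophosphate and ATP, stood at 4.16, 4.31 and 4.20 at E55d and at 1.95 ± 0.41 at B0d. Its W30d values of 2.77, 0.77 and 2.07 were the most scattered of its groups, and all of them were below the fetal ones. KIT, the stem cell factor receptor of blood progenitors and mast cells, had fetal values of 4.93, 4.23 and 5.08. At B0d it read 2.87, 3.92 and 1.51, and its 9 later domestic values lay between 2.50 and 3.22. The 3 B0d animals thus covered a wider range of KIT than all later domestic animals together, and the excess of 1.98 ranged from 1.35 to 2.55 with 1 library left out.

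**Figure D3:**
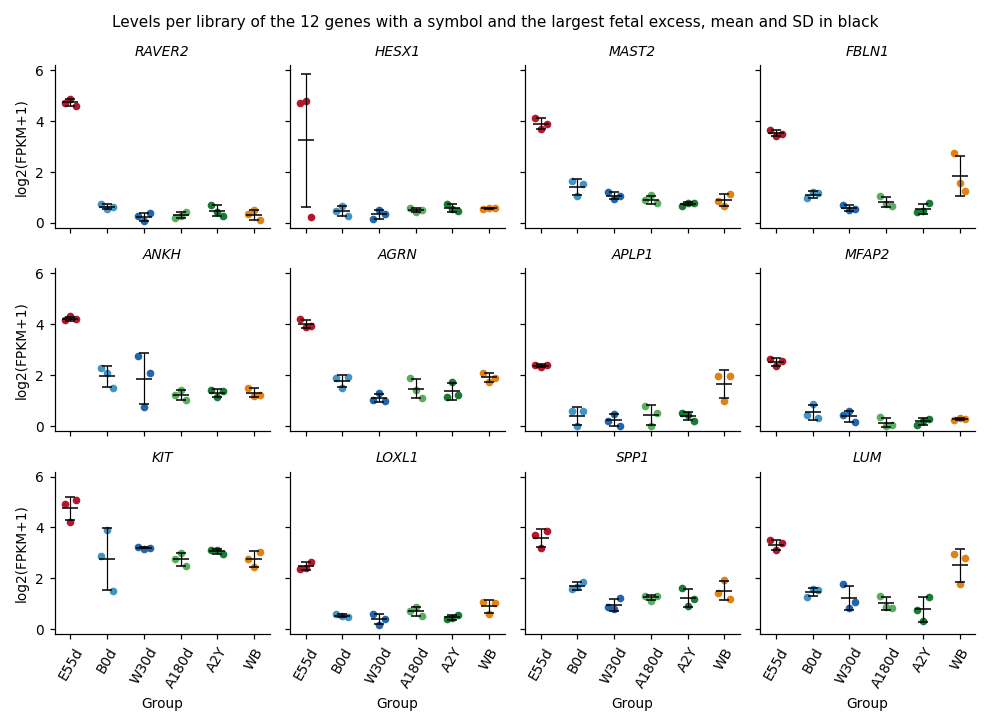
Log2(FPKM+1) per library in the 6 groups for the 12 genes with a symbol and the largest fetal excess; points are libraries, black bars the mean and SD of 3. All fetal points lie above all domestic postnatal points except HESX1 in E55d column 6 (0.22), and LUM, FBLN1 and APLP1 are raised in WB.

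For 83 of the 113 genes with a symbol, a textbook role was assigned after the values were seen, so the groups that follow order the description and carry no test. The largest median excess was found among 19 genes of the extracellular matrix and its assembly, with a median of 1.45 (range 1.02 to 2.42). The other groups had medians of 1.25 (20 growth factors, receptors and adhesion proteins), 1.17 (21 genes of transcription, chromatin and RNA), 1.23 (5 genes of cell division and genome maintenance) and 1.20 (18 genes of metabolism and transport). A further 30 genes with a symbol were left without a role, among them MAST2.

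The matrix genes included proteins of elastic fibres, basement membranes and collagen fibrils. FBLN1, a fibulin of elastic fibres and basement membranes, stood at 3.67, 3.44 and 3.51 at E55d and at 0.97, 1.22 and 1.17 at B0d. MFAP2, a microfibril protein, read 2.65, 2.37 and 2.55 against 0.45, 0.86 and 0.31. LOXL1, which crosslinks elastin, read 2.38, 2.39 and 2.65 against 0.58, 0.53 and 0.48. In each of these genes the fetal values stood clear of all domestic values after birth, and the FPKM was 9.06, 10.1 and 10.3 times as high at E55d as at B0d.

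AGRN, a heparan sulfate proteoglycan of basement membranes, read 4.19, 3.88 and 3.95 at E55d and 1.91, 1.49 and 1.91 at B0d. LUM, a small leucine-rich proteoglycan of collagen fibrils, read 3.49, 3.10 and 3.38 against 1.27, 1.58 and 1.54. SPP1, the secreted phosphoprotein osteopontin, read 3.72, 3.18 and 3.84 against 1.56, 1.66 and 1.86. Here too the groups did not overlap, and after birth all 3 genes kept an FPKM above 1 at B0d. FRAS1, a basement membrane protein of the embryonic epithelium, and SVEP1, a cell adhesion protein of vessels, had excesses of 1.79 and 1.49.

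The collagens of the set that had a symbol were minor ones. COL1A2 and COL3A1, chains of fibrillar collagens, had excesses of 1.27 and 1.0. The ranges of their domestic postnatal means, 0.99 and 1.11, kept them outside. COL14A1 and COL16A1, which decorate fibrils, had excesses of 1.31 and 1.35, and COL15A1, a basement membrane collagen, one of 1.45. COL15A1 read 3.10, 2.75 and 2.97 at E55d, and its 4 domestic postnatal means lay between 1.37 and 1.61. NID2, which links laminin and collagen networks, was near the lower limit at 1.02, with 3.56, 3.83 and 3.51 at E55d and 2.52, 2.70 and 2.62 at B0d. PCOLCE, the enhancer of procollagen processing, and AEBP1, a collagen-binding protein, had excesses of 1.37 and 1.43, and the B0d values of AEBP1 (1.24, 1.23 and 2.40) held 1 high animal, replicate 3.

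Fixed lists showed how the limits sorted matrix genes from each other. Of 48 collagen and matrix genes listed, 31 were measured and 18 of these were lower at B0d in limma, against 12.6% of all genes, and 3 were higher, against 22.3%. The 5 that were among the 173 genes are included, and since this contrast set the first limit, nothing is read from these counts. A fetal excess of at least 1 was found in 11, and 6 of them went on moving after birth and so stayed outside. COL5A1, a chain of fibrillar collagen (excess 1.81, postnatal range 1.04) and MATN2, a matrilin (1.99 and 1.17) were of this kind. ELN, the elastin gene, had an excess of 0.15 and a range of 3.10, with a B0d mean of 4.78 and an A2Y mean of 1.68.

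Of 48 cell cycle genes listed, 30 were measured, 18 were lower at B0d, a count from which again nothing is read, and 13 had a fetal excess of at least 1. All 13 moved by 0.75 or more after birth. Thus 0 of the 30 were among the 173 genes, where the share of all genes was 1.34%, too low for a list of this size to stand out by it. TOP2A, the topoisomerase of dividing cells, had an E55d mean of 5.89, a B0d mean of 4.71, a W30d mean of 5.95 and an A2Y mean of 3.73. The list summed to an FPKM of 478 to 599 at E55d and 173 to 337 straight after birth, while it reached 236 to 682 at W30d before 72.6 to 146 at A2Y.

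**Figure D4:**
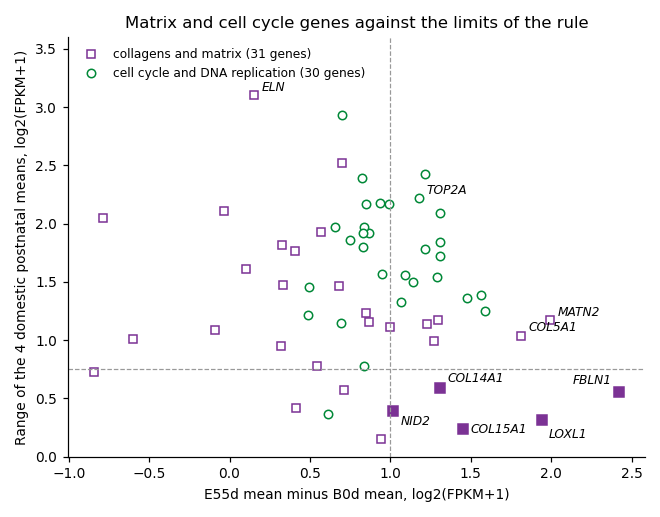
Fetal excess against the range of the 4 domestic postnatal means for 31 collagen and matrix genes (squares) and 30 cell cycle genes (circles), all on log2(FPKM+1). Filled symbols are the 5 matrix genes inside both limits, drawn as dashed lines at 1 and 0.75; 13 cell cycle genes pass the first limit and 0 pass both.

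The set did hold 5 genes of cell division and genome maintenance that were not on this list. FOXM1, a transcription factor of mitotic genes, had means of 1.99, 0.70, 0.65 and 0.25 from E55d and B0d to A180d and A2Y, with W30d at 1.00, a range of 0.74. SKA3, a kinetochore protein, went from 2.43 and 1.13 at E55d and B0d to 1.14 and 0.89 at A180d and A2Y, with W30d at 1.60. Both stood higher at W30d than at the other stages after birth, as TOP2A did.

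Among growth factors, receptors and adhesion proteins, APLP1, an amyloid precursor-like protein, had the largest excess (1.99), followed by KIT (1.98). MDK, the heparin-binding cytokine midkine, had one of 1.80. MDK read 5.42, 5.47 and 5.70 at E55d and 3.97, 3.58 and 3.63 at B0d, and its W30d mean of 4.45 was above that of B0d by 0.72. HDGF, a hepatoma-derived growth factor of the nucleus, read 5.61, 5.29 and 5.35 against 3.82, 3.89 and 4.18, and was at 3.27, 3.26 and 3.20 at A2Y. Both genes remained well expressed, at an FPKM of 16.5 and 13.1 over the domestic postnatal libraries.

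CDH11, a cadherin of mesenchyme, read 4.66, 4.76 and 4.93 at E55d and 3.62, 4.21 and 3.48 at B0d, an excess of 1.01. TENM3, a teneurin adhesion protein, and EPHA7, an ephrin receptor, had excesses of 1.49 and 1.03. Of the fixed lists of Wnt, Hedgehog and Notch signalling (19 measured) and of BMP, TGF-beta, FGF and IGF signalling (16 measured), 0 genes were among the 173, which with 1.34% of all genes inside the limits does not set these lists apart. KIT was the only one of 10 measured stem and progenitor markers inside the limits; MYB, a transcription factor of progenitors, had a fetal excess of 1.29 but a postnatal range of 1.65.

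Regulators of transcription included both imprinted genes of the set. PEG3, a zinc finger gene expressed from the paternal allele, stood between 2.18 and 2.23 at E55d and read 0.59, 1.21 and 0.57 at B0d, with 0.18 to 0.49 in the 9 later domestic libraries. PLAGL1, a zinc finger gene of fetal growth control, read 3.16, 2.84 and 2.82 at E55d and 1.62, 1.37 and 1.72 at B0d. In PEG3 the highest value after birth was 1.21, still below every fetal one. The other 4 measured imprinted genes (MEST, GRB10, SGCE and NDN) had excesses of 0.19 to 0.48 and stayed outside.

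BCL11A, the zinc finger repressor of fetal globin genes and a B cell factor, stood at 2.73 ± 0.28 at E55d, with 2.45 as its lowest value, and read 1.20, 1.23 and 1.25 at B0d. NFIB, a nuclear factor of organ maturation, had an excess of 1.72, and DNMT3B, a de novo DNA methyltransferase, one of 1.07. DNMT3B had means of 1.28, 1.45, 0.95 and 0.73 at the 4 domestic stages after birth. TENT5C, a cytoplasmic poly(A) polymerase of erythroid and plasma cells, read 6.07, 5.83 and 5.60 at E55d, which overlapped W30d at 5.63, 3.73 and 5.60. Its excess of 1.11 became 0.68 without B0d replicate 3 and 1.48 without B0d replicate 2.

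Among genes of metabolism, IMPDH1, an enzyme of guanine nucleotide synthesis, had an excess of 1.71, and SLC29A1, a nucleoside transporter, one of 1.07. COX3, the mitochondrially encoded subunit of cytochrome c oxidase, was the most abundant of the 173 genes. It read 9.94, 9.86 and 9.69 at E55d, 8.83, 8.59 and 8.94 at B0d and 9.30, 9.56 and 9.62 at A2Y. Its fetal values were still above all 12 domestic postnatal values, but by 0.07 at the closest.

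Wild Boar was the group that the limits had not used, apart from the mean over all libraries. Its mean was below E55d by at least 1 in 119 of the 173 genes and at or above E55d in 9, with a median difference of 1.42. Every E55d library was above every WB library in 151 genes (87.3%, against 23.9% of all genes), but the genes were chosen for high E55d values, which largely fixes this count and the differences from E55d. WB libraries had medians of 1.41, 1.05 and 1.24 over the set, and the A2Y libraries had 1.03, 1.04 and 1.10, so that the lowest WB library lay inside the A2Y range. The WB mean was above all 4 domestic postnatal means in 31.8% of the genes and below all of them in 18.5%, against 28.5 and 15.1% of all genes.

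Between A2Y and WB, limma on all 12913 genes found 29 of the 173 genes higher in WB (16.8%, against 10.8% of all genes) and 4 lower (2.31%, against 9.57%). The limits used the A2Y means, which had to lie near the other domestic means after birth. These shares are thus not independent of the choice of genes, and nothing particular to the set is read from them. At an unadjusted p below 0.05 the counts were 47 and 11. The median difference was 0.10 over the set and 0.01 over all genes. When FPKM was rescaled without the most abundant gene, 13 were higher, all among the 29, and 10 lower, against 1.96 and 21.2% of all genes, and the medians became -0.09 for the set and -0.30 for all genes. The median of the set was then still above that of all genes, but its own sign turned. Of the 29 calls, 17 held with each A2Y and WB library left out in turn, and each of the 4 lower ones was lost in at least 1 case. The p-values rest on a spread between animals that was pooled over the 6 groups of 3 and moderated across all genes. This spread differed between groups, with a median SD over all genes of 0.12 at E55d and 0.25 in WB. When the model held A2Y and WB alone, 18 of the 173 were higher and 2 lower, against 5.64 and 5.21% of all genes.

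**Figure D5:**
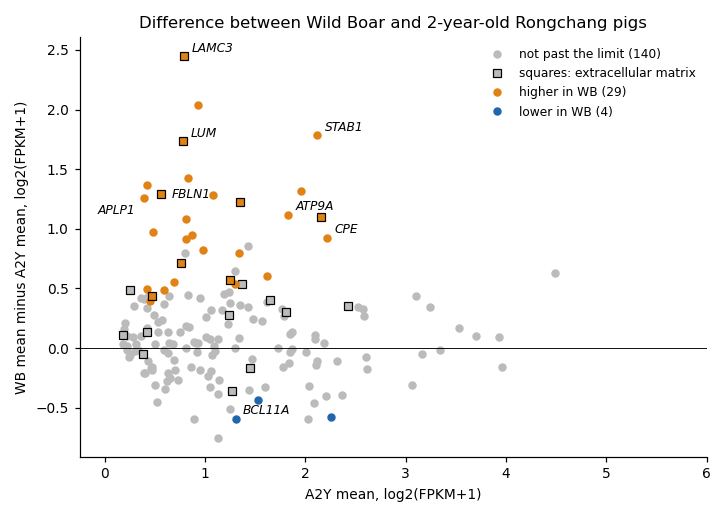
WB mean minus A2Y mean against the A2Y mean, both on log2(FPKM+1), 1 point per gene; orange and blue mark the 29 genes higher and the 4 lower in WB at an adjusted p of at most 0.05, and squares the matrix genes. COX3, with an A2Y mean of 9.50, lies beyond the axis; LAMC3 is the highest point at 2.45, and 8 of the orange points are squares.

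LAMC3, a laminin chain of basement membranes, showed the largest difference. It read 2.93, 3.17 and 3.61 in WB and 0.94, 0.67 and 0.77 at A2Y, a difference of 2.45 ± 0.18 (SE, adjusted p = 2.65e-06). The WB values were also above the fetal ones of 2.40, 2.26 and 2.22, and the 12 domestic postnatal values reached 0.94 at most. LAMC3 was thus low after birth in the domestic pig and higher in WB than in the fetus.

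STAB1, a scavenger receptor of macrophages and sinusoidal endothelium, read 4.27, 3.35 and 4.09 in WB against 2.51, 1.91 and 1.94 at A2Y (difference 1.79 ± 0.26, adjusted p = 0.00044). Its WB values were above its fetal values of 2.88, 2.79 and 3.12 as well. OTTSUSG00000005150, which has no symbol, differed by 2.03 ± 0.25 (adjusted p = 0.00013) and was likewise above E55d in WB, with 2.77, 2.76 and 3.38 against 1.92, 2.00 and 1.95. NT5DC2, next to STAB1 in the RefSeq annotation of Sscrofa11.1, was higher in WB by 0.54 (adjusted p = 0.029), a call that was lost without A2Y replicate 2 or 3 or WB replicate 3, with 0.35 and an adjusted p of 0.13 in the last case.

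The matrix genes made up 8 of the 29, and the median difference over the 19 was 0.44. LUM read 2.96, 1.78 and 2.81 in WB against 0.75, 0.32 and 1.28 at A2Y (difference 1.73 ± 0.30, adjusted p = 0.0013). FBLN1 read 2.75, 1.55 and 1.24 against 0.43, 0.46 and 0.79 (difference 1.29 ± 0.26, adjusted p = 0.0035), and without WB replicate 1 the difference was 0.84 (adjusted p = 0.003). Groups did not overlap in either gene, and both remained below their fetal values.

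AEBP1 (1.23), PCOLCE (1.10), LTBP3, a latent TGF-beta binding protein (0.71), SVEP1 (0.57) and LOXL1 (0.44) were the other matrix genes higher in WB. Of these, the call of PCOLCE was lost without A2Y replicate 1 (adjusted p = 0.056). The call of SVEP1 was lost without A2Y replicate 1 or 2 or WB replicate 1 or 3, with a difference of 0.37 and an adjusted p of 0.14 without WB replicate 1. LOXL1 lost its call without any one A2Y library or WB replicate 1 or 3 (adjusted p up to 0.12). When FPKM was rescaled without the most abundant gene, all 5 lost their calls, with AEBP1 at 0.87 (adjusted p = 0.054) and LTBP3 at 0.45 (0.096), and of the 8 matrix calls 3 remained (LAMC3, LUM and FBLN1). Only 1.96% of all genes were higher in WB in that setting. COL14A1, COL15A1 and NID2 did not pass the test, with differences of 0.31, -0.17 and 0.35.

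Outside the matrix, APLP1 read 1.97, 1.00 and 1.97 in WB against 0.53, 0.43 and 0.21 at A2Y (difference 1.26 ± 0.25, adjusted p = 0.0027). ALDH1A2, which makes retinoic acid, was higher by 1.08, PTGIS, the prostacyclin synthase, by 0.95, CPE, a prohormone-processing carboxypeptidase, by 0.93, and ATP9A, a phospholipid flippase, by 1.12. PTGIS at 1.93, 1.78 and 1.76 in WB lay in the range of its fetal values of 2.01, 1.69 and 1.94, and ATP9A and CPE had WB means above their E55d means. These calls held with each A2Y and WB library left out, but without the most abundant gene CPE differed by 0.53 and lost its call (adjusted p = 0.12).

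WB libraries also held more RNA of stromal markers. Of 13 measured stromal and mesothelial markers, which include LUM, 9 were higher in WB (against 10.8% of all genes), and their summed FPKM was 713 to 1100 at A2Y and 1490 to 2210 in WB. The 7 macrophage markers summed to 2070 to 2330 at A2Y and 3900 to 5000 in WB, but only 2 of them were higher in WB, C1QA (1.23) and VCAM1 (0.83), while CSF1R (means of 3.38 at A2Y and 2.52 in WB) and TIMD4 (2.72 and 1.71) did not pass and differed the other way. Without the most abundant gene, 0 macrophage markers were higher and 1 was lower, and 7 stromal markers were higher. In that setting 1.96% of all genes were higher and 21.2% lower. Of the 31 collagen and matrix genes, 11 were higher in WB (against the same 10.8%), or 5 without the most abundant gene (against 1.96%). Their sum was 230 to 264 at A2Y and 322 to 570 in WB. WB replicate 1 had the highest stromal and matrix sums and was the highest WB library in 19 of the 29 genes. Without it, 22 of the 173 genes were higher in WB, where the share of all genes was 10.6%. The part of these markers in the differences was not tested.

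The 4 genes lower in WB had small differences. BCL11A read 0.60, 0.81 and 0.74 in WB against 1.20, 1.48 and 1.23 at A2Y (difference -0.59 ± 0.16, adjusted p = 0.017), and the call was lost without A2Y replicate 2 (0.062) or WB replicate 1 (0.053). ECHDC1, an enzyme that removes aberrant acyl-CoA metabolites, differed by -0.58 (adjusted p = 0.044), and COX3 by -0.50 (0.046). The call of ECHDC1 was lost whichever A2Y or WB library was left out, and that of COX3 in all cases but A2Y replicate 1, with an adjusted p of up to 0.11 and 0.13. EXOG, a mitochondrial nuclease, differed by -0.44 (0.023), and its call was lost without A2Y replicate 1 (0.095) or WB replicate 2 (0.068). B cell markers, of which 5 of 6 were lower in WB (against 9.57% of all genes) and whose summed FPKM was 126 to 188 at A2Y and 44.1 to 52.1 in WB, moved the same way as BCL11A, and their part was not tested.

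The 29 genes higher in WB had a median group mean of 2.38 at E55d, 0.83 at A2Y and 1.85 in WB. The other 144 genes had medians of 2.54, 1.06 and 1.08. The 29 were chosen by the contrast itself, so these medians are a description.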

How the data were processed

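Total RNA of 18 spleens was made into strand-specific libraries and sequenced. Per the submitters' processing notes and the study's methods, the authors mapped reads with TopHat to Sscrofa10.2 with replaced sex chromosomes, quantified genes with StringTie 1.3.3 and deposited log2 values, log2(FPKM+1). Read counts are unknown from these values, so no counting interval is given, and further scaling is not given in the sources used here. The study lists the amount of sequence per library, which was larger in every A2Y library than in any WB library. Columns were mapped to groups by name. The study compared groups with DESeq2 on counts, which were not analysed here.

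Identifiers were paired with symbols through a gene name table (8215 of 12913 matched). For tests, limma 3.58.1 (R 4.3.3) fitted the 6 groups of 18 libraries together over all 12913 genes. Its eBayes step allowed for a trend of variance with level, and p-values were adjusted by Benjamini-Hochberg, with 0.05 as the limit. On simulated data for A2Y to WB (12913 genes, 200 changed), 63% of changes of 1 and 98% of changes of 2 were recovered, and 4.73% of calls were false. The simulation gave each gene the same normal spread in all 6 groups. As the spread of the real groups differed, it cannot give the error rate of the real calls. Other steps used Python 3.11.15, numpy 2.4.6 and pandas 2.3.3, and figures matplotlib 3.10.9.

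The genes, the 21 gene lists and the tests were chosen with earlier results of these data known. Genes were named by rule: the 12 with a symbol and the largest excess, the 5 highest others at E55d, members of the lists, the 3 largest differences between A2Y and WB in each direction, and those at the limits. Other named genes were chosen after their values were seen. No sequence was printed. Alternatives were median ratio scaling, leaving out the most abundant gene, a pseudocount of 0.1, a filter (FPKM above 1 in at least 3 libraries), other limits, a model of A2Y and WB only, no trend, a replicate block, and each library left out.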

Additional observations from a re-analysis of the deposited data

How the results depend on the processing

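The limits held for 234 genes after median ratio scaling (160 of the 173), 171 without the most abundant gene (83), 185 with a pseudocount of 0.1 (58), 172 after the filter, 12 with an excess of at least 2, 79 with a range below 0.5 and 130 with WB in the range, and for 150 to 190 with 1 library left out. With only A2Y and WB in the model, 18 of the 173 were higher in WB and 2 lower (5.64 and 5.21% of all genes). The counts were 13 and 10 without the most abundant gene (1.96 and 21.2%), and 29 and 7 with the pseudocount (9.79 and 9.67%). As the share of all genes moved with the setting, these and the next counts are not read as changes in the 173. Without A180d replicates 1 and 2, chosen after seeing the data, 26 were higher and 2 lower. With 1 library left out, 22 to 35 were higher and 1 to 3 lower, fewest lower without A2Y replicate 2 or WB replicate 2 (1 each). The shares of all genes moved too, to 6.62 and 5.09% without A2Y replicate 1 and to 10.6 and 6.15% without WB replicate 1. The median difference ranged from 0.07 to 0.19 with 1 library left out and was -0.0928 without the most abundant gene. Median ratio scaling moved the median change of all genes from E55d to B0d from 0.13 to 0.01. LAMC3, STAB1, LUM, FBLN1, APLP1, ALDH1A2, ATP9A, PTGIS and OTTSUSG00000005150 kept their calls in 12 of 12 settings without a block or a reduced model. The postnatal mean was below an FPKM of 0.5 in 33 genes and below 0.1 in 0. With 1 library left out, every E55d library was above all WB libraries in 151 to 159 genes. Deviations of same-numbered A2Y and WB libraries from their group means had correlations of 0.001, -0.072 and 0.119. So few values cannot show whether equal numbers share handling, and the labels give no pairing of animals. A replicate block over the 15 numbered libraries gave 21 higher and 3 lower, against 7.30 and 6.44% of all genes. DESeq2 was not run, since the values are not counts.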

Other observations

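The table of long non-coding RNAs was put to the same 3 limits, with an undetected RNA read as 0. They held for 247 of 15040 (1.64%), beside 1.34% of protein-coding genes, and 370 lncRNAs were higher at E55d than at B0d by at least 1. Of the 247, 8 were listed at 0 in all 12 domestic postnatal libraries. The protein-coding table, which was limited to genes above an FPKM of 0.1, held 0 genes with a postnatal mean below 0.1, so the 2 tables differ in what they can show at the low end.

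Erythroid markers, of which 15 were measured, gave 0 of the 173 genes. Of these 15, 3 had a fetal excess of at least 1, and all 3 went on moving after birth, with SLC4A1, the anion exchanger of red cells, at means of 7.87 ± 0.22 (SD, n = 3) at E55d, 6.41 ± 0.67 at B0d and 0.80 ± 0.18 at A180d. At W30d its mean of 5.21 ± 3.77 covered animals far apart, at 7.57, 0.86 and 7.21. The 7 measured genes of the fixed homeobox list and the 2 measured splenic patterning factors also gave 0 members. With 1.34% of all genes inside the limits, counts of 0 do not set these lists or the erythroid one apart. HESX1, a homeobox gene inside the limits, was not on that list. IGF2BP2, an oncofetal RNA-binding protein, had an excess of 1.43 and a postnatal range of 1.66, with means of 1.99 at B0d and 0.33 at A180d.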
